A study of Mus musculus with 6 samples.

Results

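DNA methyltransferases and Tet dioxygenases, the enzymes that write and erase cytosine methylation, were followed in mouse sarcoma cells with and without the microRNA-processing ribonuclease Dicer. The members were 7 genes, Dnmt1, Dnmt3a, Dnmt3b, Tet1, Tet2, Tet3 and Tdg, each taken through the array's probe sets that are annotated to it and to no other gene. Of the 45037 probe sets on each array 17 met this rule, and they covered 6 of the 7 genes. The 3 probe sets annotated to Tdg, a glycosylase that removes oxidised methylcytosine, are tied to 2 other symbols as well, and Tdg therefore has no value here. A log2 mean of at least 3 over the 6 arrays, the minimum for testing, was reached by 14 of the 17 probe sets, and the 3 below it all belong to Tet1. The 6 arrays fall into 2 groups of 3, sarcoma cells heterozygous for Dicer and sarcoma cells null for Dicer, all of strain C57BL6/J, grown to confluence in serum-containing medium. The labels do not say how the tumours arose, which Dicer allele was used or how it was deleted. The series text calls the samples cell lines and the titles call them replicates, so the p-values measure only the spread between these samples, which may be technical.

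Methylation of CpG cytosines is set by Dnmt3a and Dnmt3b, the de novo methyltransferases, and copied to the new strand after replication by Dnmt1, which Uhrf1 brings to hemimethylated sites. Tet1, Tet2 and Tet3 oxidise the methyl group with oxoglutarate and iron, and base excision through Tdg can then restore an unmethylated cytosine. Several of these messengers, among them Dnmt3a, Dnmt3b and the Tet genes, are known targets of the microRNA family miR-29, which cannot mature without Dicer. Because that family links the members to the enzyme missing in the null cells, its mature strands are shown with the seed, bases 2 to 8, in capitals. The sequences are RefSeq's on GRCm38.p6.
miR-29a-3p: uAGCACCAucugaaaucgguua
miR-29b-3p: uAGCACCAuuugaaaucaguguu
miR-29c-3p: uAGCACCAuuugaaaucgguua
The 3 mature strands have 1 seed in common and no other mature sequence in the table carries it. miR-29a lies at chr6:31062673-31062694 on the minus strand and miR-29c at chr1:195037600-195037621 on the plus strand, and miR-29b is encoded beside each of them. The arrays measured messenger RNA and not these microRNAs.

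Promoters of the members differ widely in CpG, the dinucleotide the enzymes act on. RefSeq promoter windows of 300 bases (GRCm38.p6, 250 before and 50 after an annotated start) were found for all 7 genes, 11 windows in all. The window of Tet3, the member whose RNA rose, and the most CpG-rich of 3 windows of Dnmt1, the member with the smallest difference, are shown with every CpG in capitals.
Tet3 (chr6:83441629-83441928, minus strand): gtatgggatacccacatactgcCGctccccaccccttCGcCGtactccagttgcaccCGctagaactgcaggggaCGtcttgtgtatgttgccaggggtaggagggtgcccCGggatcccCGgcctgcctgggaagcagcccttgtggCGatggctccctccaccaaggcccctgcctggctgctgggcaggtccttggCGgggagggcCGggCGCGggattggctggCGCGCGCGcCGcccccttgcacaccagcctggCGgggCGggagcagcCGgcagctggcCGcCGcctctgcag
Dnmt1 (chr9:20952574-20952873, minus strand): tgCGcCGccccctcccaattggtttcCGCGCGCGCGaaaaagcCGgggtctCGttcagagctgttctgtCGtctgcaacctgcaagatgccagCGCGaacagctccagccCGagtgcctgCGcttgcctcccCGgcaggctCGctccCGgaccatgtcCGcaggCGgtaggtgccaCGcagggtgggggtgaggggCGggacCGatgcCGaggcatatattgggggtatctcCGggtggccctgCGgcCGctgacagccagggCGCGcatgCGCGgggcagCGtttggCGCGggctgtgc
The Tet3 window holds 22 CpG and the Dnmt1 window 33, against a median of 7 over the 32851 windows of the table. The other windows of Dnmt1 hold 2 and 12. The Tet2 window holds 57, a number reached by 0.152% of all windows, and the 2 upstream windows of Dnmt3a hold 46 and 47. The motifs TTTCCCGC and TTTGGCGC, forms of the site of the S phase factors of the E2F family, were searched on both strands, where they do not overlap each other. The Dnmt1 window shown, the most downstream of the gene's 3, holds TTTGGCGC. Its first base lies 33 bases after that window's own annotated start, not the upstream starts of Dnmt1. The other 10 member windows hold neither motif. Of all windows 1.56% hold at least 1 of them, and a match of letters is not evidence of binding.

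Per the submitters' processing notes the values are log2 GCRMA values, and the array medians lay between 3.32 and 3.43. Vim, the intermediate filament of mesenchymal cells, lay between 13.71 and 13.84 in all 6 arrays, and 10 of 11 mesenchymal markers were above the minimum. Limma called 0 of these 10, but 3 had an unadjusted p under 0.05, all lower in null arrays, against 24% of all genes. They were S100a4 (difference -1.37, limma adjusted p = 0.057), the growth factor receptor Pdgfra (-1.63, 0.0593) and its relative Pdgfrb (-1.03, 0.186), and their part in the members' differences was not tested. All 7 endothelial, 6 of 7 leukocyte, 8 of 10 pluripotency and 4 of 7 epithelial markers were below it. Arrays of the heterozygous group stood apart from each other. In heterozygous replicate 1 the keratin Krt18 stood at 9.02, against at most 2.68 in the other 5 arrays. The leukocyte marker Cd68 read 7.13 there, against 4.43 to 5.84 elsewhere. Keratin signal was not confined to that array. Krt19 read 8.92, 7.07 and 4.75 in the heterozygous and 8.5, 8.15 and 6.49 in the null arrays. Epcam, the remaining tested epithelial marker, was highest in null replicate 2, at 5.21. In heterozygous replicate 3 the median of 29 proliferation genes lay 0.93 below their means over the arrays on the log2 scale. For some members the difference is also given without heterozygous replicate 1 or 3. Others moved as well and are not all given here. Dicer1 itself read 8.32 ± 0.24 in the heterozygous and 8.46 ± 0.09 in the null group (SD, n = 3 each), by a probe set whose place relative to the deletion is not known.

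The comparison of null with heterozygous arrays asks which of these enzymes differ in RNA level where Dicer is missing. Tet3 was the gene that rose, and a probe set of Dnmt3a rose with it. No member fell. In limma's moderated test 2 of the 14 tested member probe sets had a Benjamini-Hochberg adjusted p of at most 0.05 over all 24385 tested probe sets, of which 3.1% did (1.62% higher and 1.48% lower in null arrays). With each gene taken by its brightest tested probe set, 1 of 6 members was called, against 3.46% of all 11425 tested genes (1.45% higher and 2% lower). An unadjusted limma p under 0.05 was found in 8 of the 14 probe sets and 3 of the 6 genes, against 23.2% and 24% of all. The null values all lay above the heterozygous ones in 9 of the 14 member probe sets, and such a separation upward held for 16.3% of all tested probe sets, with 30.9% separated in either direction. By gene it was 4 of 6, against 14.9% upward and 32.2% in either direction. Differences were positive in 12 of the 14 probe sets and all 6 genes, against 52.5% and 48.7% of all. Of the 9 separated probe sets, however, 5 belong to Dnmt3a and were designed on 1 source sequence. The median log2 difference was 0.94 over the 14 member probe sets and 0.03 over all tested ones. In such bulk RNA, fewer cells with a transcript and less of it per cell cannot be told apart.

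**Figure D1:**
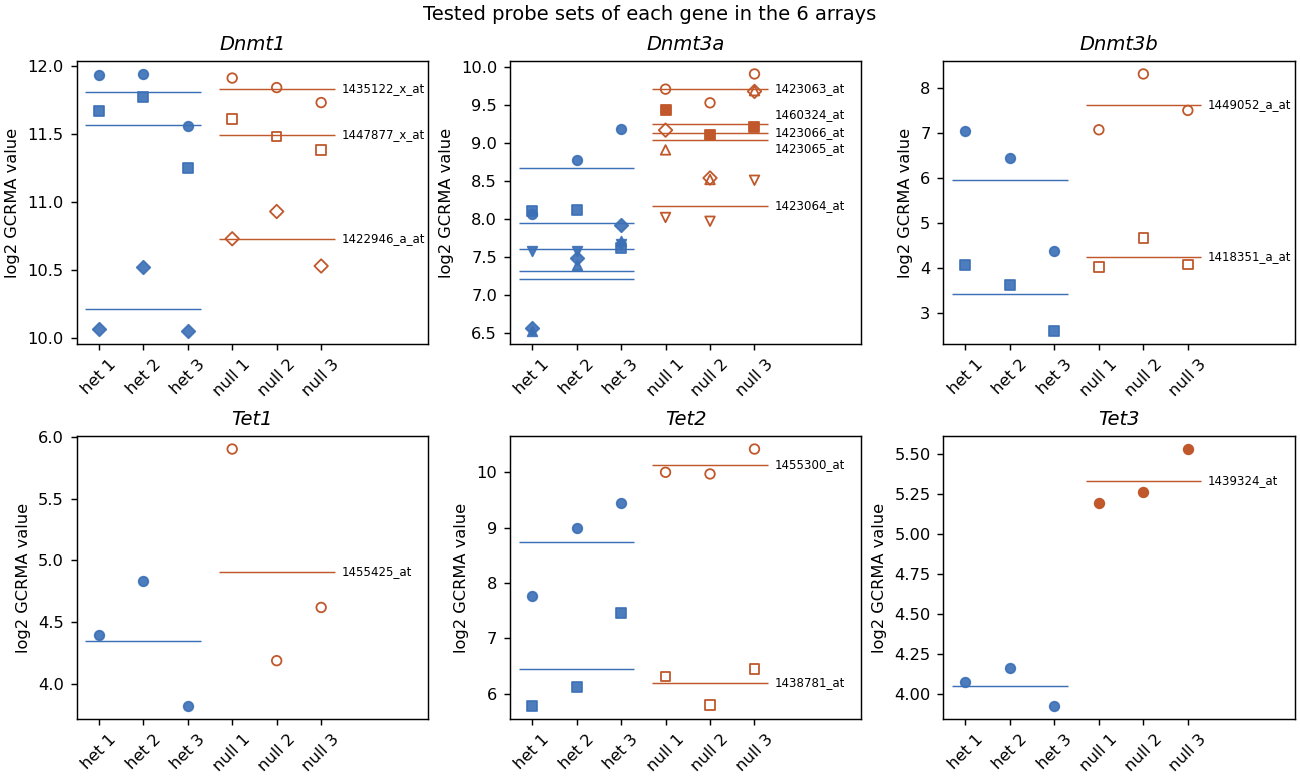
Log2 GCRMA value (y) of every tested probe set in each of the 6 arrays (x), 1 panel per gene, with heterozygous arrays in blue and null arrays in orange. Marker shapes tell probe sets apart, lines are group means, and filled orange markers belong to the 2 called probe sets. Tet3 lies between 3.92 and 4.16 in heterozygous and between 5.19 and 5.53 in null arrays.

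Among the dioxygenases Tet3, the Tet enzyme of the fertilised egg and of many differentiated cells, had the clearest separation. Its only probe set, 1439324_at, read 4.07, 4.16 and 3.92 in heterozygous replicates 1, 2 and 3 and 5.19, 5.26 and 5.53 in null replicates 1, 2 and 3. The gap between the groups, from 4.16 to 5.19, was wider than the range within either of them. Tet3 rose 2.42-fold (log2 difference 1.28, SE 0.17, 95% interval 0.86 to 1.70; limma adjusted p = 0.0256). The size of the rise was 1.17 to 1.35 in all 20 alternatives, but the call was kept in only 12 of them. With all 6 arrays it was lost with ordinary t statistics (adjusted p = 0.0912 from limma's unmoderated fit). It was also lost with the replicate number as a block and with the proliferation covariate (limma adjusted p = 0.0793 and 0.0907), and in most fits without 1 array. Leaving out heterozygous replicates 1 and 2 in turn gave limma adjusted p-values of 0.0509 and 0.0765, leaving out null replicates 1, 2 and 3 gave 0.0671, 0.0937 and 0.102, and leaving out heterozygous replicate 3 gave 0.0391. The level of Tet3 is low on this array, within about 1 log2 unit of the minimum in the heterozygous group, where GCRMA's background model bears on the value.

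Tet2, a dioxygenase often mutated in blood cancers, was read by 2 probe sets, of which 1 separated the groups. The brighter, 1455300_at, read 7.77, 8.99 and 9.45 in the heterozygous and 10.00, 9.97 and 10.42 in the null arrays. The groups did not overlap, and heterozygous replicate 1 was the lowest array by more than a log2 unit. Its log2 difference was 1.39 (SE 0.44, 95% interval 0.33 to 2.46), and limma's adjusted p of 0.135 did not pass. Without heterozygous replicate 1, the array with Krt18 at 9.02, the difference was 0.91 with an adjusted p of 0.126, and its part in the result beyond that was not tested. The dimmer probe set of Tet2, 1438781_at, read 5.77, 6.12 and 7.46 against 6.31, 5.80 and 6.45, with heterozygous replicate 3 highest. There the groups overlapped, with a log2 difference of -0.26 (95% interval -1.38 to 0.86; limma adjusted p = 0.776). Without heterozygous replicate 3 the difference turned to 0.24, with array weights to 0.11 and with the proliferation covariate to 0.77. It stayed negative without any other array. Without heterozygous replicates 1 and 2 it was -0.603 and -0.428, and without null replicates 1, 2 and 3 it was -0.325, -0.07 and -0.395.

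Tet1, the dioxygenase of embryonic stem cells and germ cells, was near background. Its tested probe set, 1455425_at, read 4.40, 4.83 and 3.82 in the heterozygous and 5.90, 4.19 and 4.62 in the null arrays. The groups overlapped, null replicate 1 standing above the rest, and the log2 difference of 0.55 (95% interval -0.64 to 1.75) had a limma adjusted p of 0.545. Without null replicate 1 it was 0.055. The other 3 probe sets of Tet1 had group means between 1.87 and 3.02 and were not tested. Dnmt3l, the inactive partner of Dnmt3a and Dnmt3b in germ cells, was similarly dim, with group means of 3.42 and 2.97.

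Dnmt3a, a de novo methyltransferase, was higher in null arrays in each of its 5 probe sets, with no overlap between groups, and 1 of them passed. That one, 1460324_at, read 8.10, 8.12 and 7.62 in the heterozygous and 9.44, 9.10 and 9.21 in the null arrays. The lowest null value thus stood almost a log2 unit above the highest heterozygous one. It rose 2.47-fold (log2 difference 1.30, SE 0.21, 95% interval 0.80 to 1.81; limma adjusted p = 0.0367). In fits without 1 array its limma adjusted p was 0.0572 and 0.0934 without heterozygous replicates 1 and 2. It was 0.103, 0.104 and 0.13 without null replicates 1, 2 and 3, and 0.0422 without heterozygous replicate 3. With all arrays the call was also lost with limma's unmoderated fit (adjusted p = 0.119). The replicate number as a block and the proliferation covariate gave limma adjusted p-values of 0.0793 and 0.123.

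The brightest probe set of Dnmt3a, 1423063_at, read 8.07, 8.78 and 9.18 in heterozygous and 9.71, 9.53 and 9.91 in null arrays. Heterozygous replicate 1 was again the lowest array, as for the brighter probe set of Tet2. Its log2 difference was 1.04 (SE 0.31, 95% interval 0.29 to 1.79; limma adjusted p = 0.118), and 0.74 without heterozygous replicate 1. Probe sets 1423065_at and 1423066_at gave the widest differences of the gene, 1.83 and 1.81 (SE 0.42 and 0.44; limma adjusted p = 0.0719 and 0.0808). In 1423065_at the heterozygous arrays read 6.52, 7.39 and 7.71 and the null arrays 8.91, 8.52 and 9.69. Heterozygous replicate 1 was the lowest array of both sets, without which their differences were 1.49 and 1.43. The narrowest, 1423064_at, read 7.58, 7.58 and 7.67 against 8.02, 7.97 and 8.51, a difference of 0.56 (limma adjusted p = 0.168). Since all 5 were designed on 1 source sequence, they repeat a measurement of Dnmt3a rather than add to the number of samples. With the 5 averaged in each array the difference was 1.31 and limma's adjusted p 0.0555.

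Dnmt3b, the second de novo methyltransferase and a gene of early embryonic tissue, varied most within the heterozygous group. Its brighter probe set, 1449052_a_at, read 7.05, 6.46 and 4.39 in heterozygous and 7.08, 8.32 and 7.51 in null arrays. Heterozygous replicate 3 stood more than 2 log2 units below the next array, and heterozygous replicate 1 reached nearly the lowest null value. The log2 difference was 1.67 (SE 0.72, 95% interval -0.08 to 3.42; limma adjusted p = 0.232), and 0.88 without heterozygous replicate 3. The dimmer probe set, 1418351_a_at, had the same low array, at 2.60 against 3.63 to 4.67 in the others, and a difference of 0.83 (limma adjusted p = 0.282), or 0.41 without that array.

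Dnmt1, the maintenance methyltransferase of dividing cells, had the smallest difference of the 6 genes by its brightest probe set. That set, 1435122_x_at, read 11.93, 11.94 and 11.56 against 11.91, 11.84 and 11.73. The groups overlapped throughout, and the log2 difference was 0.02 with a 95% interval of -0.41 to 0.45 (limma adjusted p = 0.97). The interval leaves room for a level up to 1.36-fold higher or 1.33-fold lower in null arrays. The second x-type set, 1447877_x_at, differed by -0.07. A probe set with the x suffix can hold probes that match other transcripts. The a-type set of Dnmt1, 1422946_a_at, whose probes may match several transcripts of the gene, read 10.07, 10.52 and 10.05 against 10.73, 10.93 and 10.53. There the lowest null array lay 0.01 above the highest heterozygous one, and the difference was 0.52 (SE 0.21, 95% interval 0.01 to 1.02; limma adjusted p = 0.207).

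**Figure D2:**
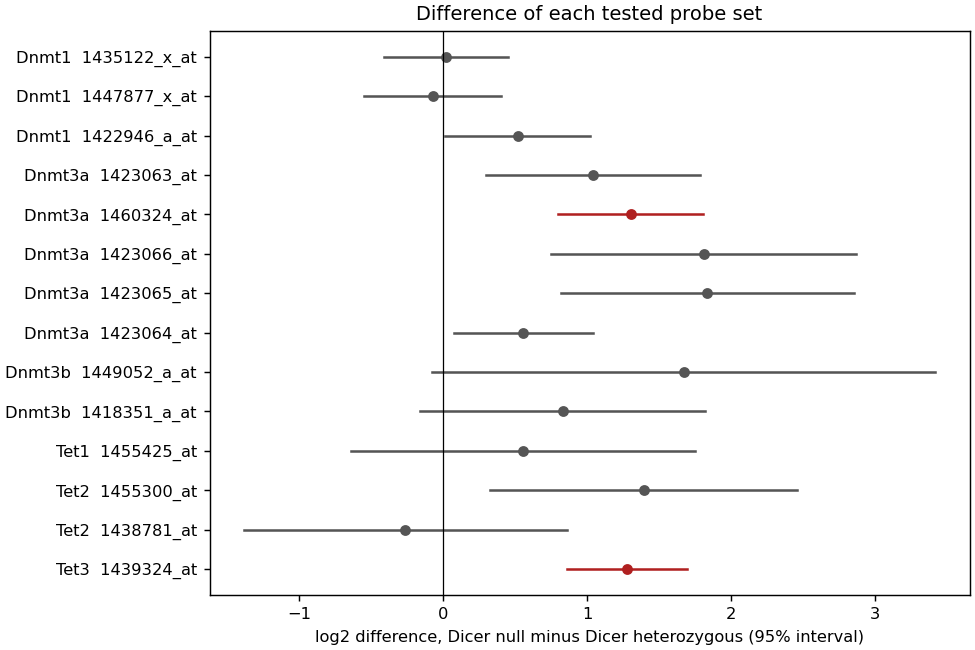
Log2 difference, null minus heterozygous (x), of each of the 14 tested probe sets (y), with limma's 95% interval as a line. Red marks the 2 called probe sets, Dnmt3a 1460324_at at 1.30 and Tet3 1439324_at at 1.28. The 5 Dnmt3a sets all lie above 0, while the sets of Tet2 and of Dnmt1 fall on both sides of 0.

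Dnmt1 and Dnmt3b are expressed with cell division in many cells, and proliferation genes were unevenly spread over these arrays. Each of the 29 tested proliferation genes read higher on average in null arrays (median difference 0.66), against 48.7% of all genes. The groups did not overlap in 15 of the 29, against 14.9% upward and 32.2% in either direction over all genes. Limma called 0 of the 29. An unadjusted limma p under 0.05 was found in 7, all higher in null arrays, against 24% of all genes in either direction. Cdc6, a replication licensing factor, came nearest (difference 1.30, limma adjusted p = 0.057). Centred on its genes, the list had array medians of -0.06, 0.04 and -0.93 in heterozygous replicates 1, 2 and 3 and 0.22, 0.58 and 0.20 in the null replicates. The array that was lowest by this list, heterozygous replicate 3, was also lowest for Dnmt3b in both probe sets, for Dnmt1 in all 3, for Tet1, for Tet3 and for the called probe set of Dnmt3a, 1460324_at. In Dnmt1 1422946_a_at it read 10.05, against 10.07 in heterozygous replicate 1. For Dnmt3a 1423063_at, 1423064_at, 1423065_at and 1423066_at and for Tet2 1455300_at and 1438781_at it was the highest of the heterozygous arrays instead. With these array medians as a covariate, the log2 difference of Dnmt3b went from 1.67 to 0.04, that of Dnmt3a from 1.04 to 1.53 and that of Tet2 from 1.39 to 2.04. Tet3 kept 1.18 with a limma adjusted p of 0.0907, and the called set of Dnmt3a 1.06 with 0.123. None of the 6 genes was called in that fit, in which 124 probe sets were called in place of 756. The list's median was lower in every heterozygous array than in any null array, so the covariate is confounded with the Dicer groups. The part of cell division in these differences was not tested.

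**Figure D3:**
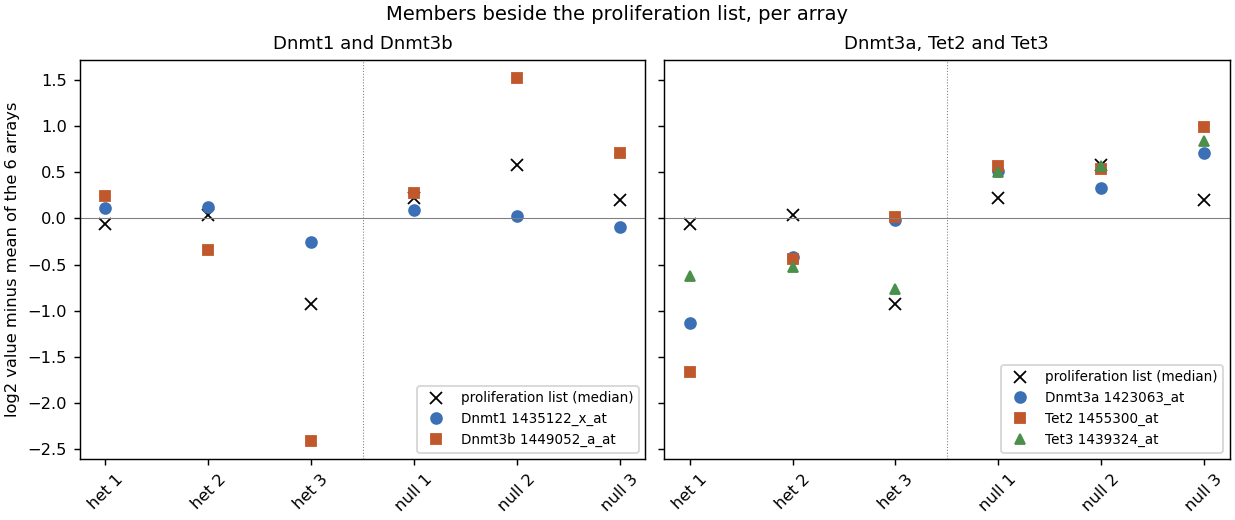
Log2 value minus the mean over the 6 arrays (y) for the brightest probe sets of 5 members, by array (x), with the median of the proliferation list as crosses. On the left Dnmt3b follows the crosses down to heterozygous replicate 3, the lowest array of that list at -0.93. On the right Dnmt3a and Tet2 are lowest in heterozygous replicate 1 and Tet3 is low in all 3 heterozygous arrays.

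The sizes of the members' differences were compared through the log2 ratio of 2 members within each array, which removes differences that all probes of an array share. Of 4 ratios, that of Dnmt1 to Dnmt3a had groups that did not overlap. It was 3.86, 3.16 and 2.38 in the heterozygous and 2.20, 2.31 and 1.82 in the null arrays, a fall of the mean by 1.02. The exact two-sided permutation test gave p = 0.1, the smallest that 3 against 3 arrays allow, and 0.4 after adjustment over the 4 ratios. Without heterozygous replicate 1 the difference of this ratio was -0.66, and without heterozygous replicate 3 it was -1.4. The ratio of Dnmt3b to Dnmt3a differed by 0.63 (exact permutation p = 0.9), but by -0.41 without heterozygous replicate 3. The ratio of Tet3 to Tet1 differed by 0.72 (exact permutation p = 0.4), by 1.29 without null replicate 1, by 0.40 without null replicate 2 and by 0.48 without null replicate 3. The ratio of Tet3 to Tet2 differed by -0.12 (exact permutation p = 0.9), and by 0.38 without heterozygous replicate 1. With 3 arrays a group no ratio could pass 0.05, so these values are descriptions.

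Genes that work with the members were read from 8 lists, in which 120 different genes were tested, and 0 of these rose and 3 fell at limma's threshold. Over all tested genes 1.45% passed as higher and 2% as lower, and limma's unadjusted p was under 0.05 in 24%, so a share of 3 in 120 lies near the background. In the list of methylation partners 0 of 13 passed, 1 had an unadjusted p under 0.05 and the median difference was 0.15. Hells, a chromatin remodeller needed for methylation of repeats, came nearest. It read 9.62, 9.89 and 9.59 against 9.92, 10.40 and 10.39 (difference 0.54, limma adjusted p = 0.187). Uhrf1, which recruits Dnmt1, read 11.18 ± 0.20 and 11.51 ± 0.21 (SD, n = 3 each; limma adjusted p = 0.358). Cdca7, a partner of Hells, shared the low array of Dnmt3b, at 4.71 in heterozygous replicate 3 against 7.20 to 8.19 elsewhere, and was chosen after its values were seen.

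Among readers of methylated CpG 0 of 7 passed, 1 had an unadjusted p under 0.05 and the median difference was -0.06. Mbd4, a glycosylase that binds methylated CpG and removes thymine as Tdg does, was nearest, at 6.30, 6.14 and 6.76 against 7.09, 7.19 and 7.69. The groups did not overlap, with a difference of 0.92 (SE 0.25; limma adjusted p = 0.102).

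Of 17 tested genes of base excision repair and its Gadd45 adaptors 1 fell, 0 rose and 8 had an unadjusted p under 0.05, 5 of them higher and 3 lower, the share of all genes being 24%. Gadd45b, a stress-induced protein linked to active demethylation, fell. It read 9.70, 10.27 and 10.33 in the heterozygous and 8.73, 7.77 and 8.08 in the null arrays, with no overlap. The fall was 3.75-fold (log2 difference -1.91, SE 0.31; limma adjusted p = 0.0382). Without heterozygous replicate 2 or 3 its adjusted p was 0.116 and 0.0597, and without null replicates 1, 2 and 3 it was 0.0514, 0.115 and 0.139. Its relative Gadd45g read 10.28 ± 0.51 and 8.82 ± 0.52 (SD, n = 3 each; limma adjusted p = 0.0855) and the oxidised-base glycosylase Neil1 8.40 ± 0.58 and 7.22 ± 0.31 (limma adjusted p = 0.109). On the other side the flap endonuclease Fen1 differed by 0.63 (limma adjusted p = 0.0828) and the uracil glycosylases Smug1 and Ung by 0.51 and 0.64 (limma adjusted p = 0.127 and 0.197), with no overlap between groups. These 5 genes were chosen after their values were seen. Over the list the groups did not overlap in 9 of the 17 genes, in either direction, against 32.2% of all genes.

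The suppliers of cofactors did not pass. Of 16 genes for Tet cofactors and partners 0 were called, with a median difference of 0.00 and 1 unadjusted p under 0.05, that of Cxxc5, a CXXC zinc finger protein. It read 9.33, 8.83 and 7.08 against 10.10, 9.74 and 9.94 (difference 1.51, limma adjusted p = 0.184), again with heterozygous replicate 3 lowest. Idh1 and Idh2, which make oxoglutarate, differed by -0.39 and 0.37 (limma adjusted p = 0.268 and 0.527). Of 14 genes of methyl donor supply 0 were called and 1 had an unadjusted p under 0.05. This was Mtr, methionine synthase, at 5.70, 5.67 and 4.98 against 6.20, 6.66 and 6.20 (difference 0.90, limma adjusted p = 0.116).

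Germline genes whose promoters are methylated in somatic cells were read as another list. Of 18 with a probe set 14 lay below the minimum. Of the 4 tested 2 fell and 0 rose, against 2% of all genes called lower. Sycp3, a protein of the meiotic chromosome axis, read 5.60, 5.73 and 5.88 against 4.61, 4.58 and 4.57, a 2.22-fold fall (limma adjusted p = 0.0256). Brdt, a testis bromodomain protein, read 5.32, 5.39 and 6.03 against 4.31, 3.74 and 3.71, a 3.16-fold fall (limma adjusted p = 0.0401). In both genes the groups were well apart. The other tested genes, Rhox5 and Taf7l, differed by 1.37 and 0.22 with overlapping groups (limma adjusted p = 0.495 and 0.693). Ddx4, a germ cell helicase below the minimum and not tested, read 4.42, 3.53 and 2.95 in null arrays, all above the highest heterozygous value of 2.35. These 3 were chosen after their values were seen. The call of Sycp3 was lost without heterozygous replicate 2 (0.0888) or null replicates 1, 2 and 3 (0.0793, 0.0966 and 0.107). The call of Brdt was lost without heterozygous replicates 1 and 2 (0.0572 and 0.101) and null replicates 1, 2 and 3 (0.0659, 0.134 and 0.144). DNA methylation itself was not measured, and its part in these differences was not tested.

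Other known miR-29 targets, 22 of them tested, had a median difference of 0.01, and 0 were called. An unadjusted limma p under 0.05 was found in 4, 3 of them higher and 1 lower, against 24% of all genes. Igf1, a growth factor, came nearest at 2.96, 3.60 and 5.12 against 6.92, 7.17 and 6.35 (difference 2.92, limma adjusted p = 0.0527). The others were Ppm1d (difference 1.10, limma adjusted p = 0.0644), Cdk6 (0.79, 0.156) and Col5a3 (-1.20, 0.168), each with no overlap between groups. Over the list the groups did not overlap in 7 of the 22 genes, near the 32.2% of all genes. Col5a3 read 2.36, 2.75 and 2.54 in the null arrays, all under 3 and so near background. Ppm1d, Cdk6 and Col5a3 were chosen after their values were seen. Members of the family that miR-29 is best known for, the fibrillar collagens Col1a1, Col1a2 and Col3a1, differed by -0.78, 0.01 and 0.17 (limma adjusted p = 0.224, 0.993 and 0.603) and were chosen after their values were seen. The pocket proteins, repressors of E2F, had 0 of 3 called and none with an unadjusted p under 0.05 in limma. Rbl1 came nearest (difference 0.92, limma adjusted p = 0.411). Rbl2, known to hold down Dnmt3 genes in Dicer-deficient embryonic stem cells, read 7.94, 8.25 and 8.66 against 8.41, 8.11 and 8.95. Its groups overlapped, with a difference of 0.21 (limma adjusted p = 0.716).

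**Figure D4:**
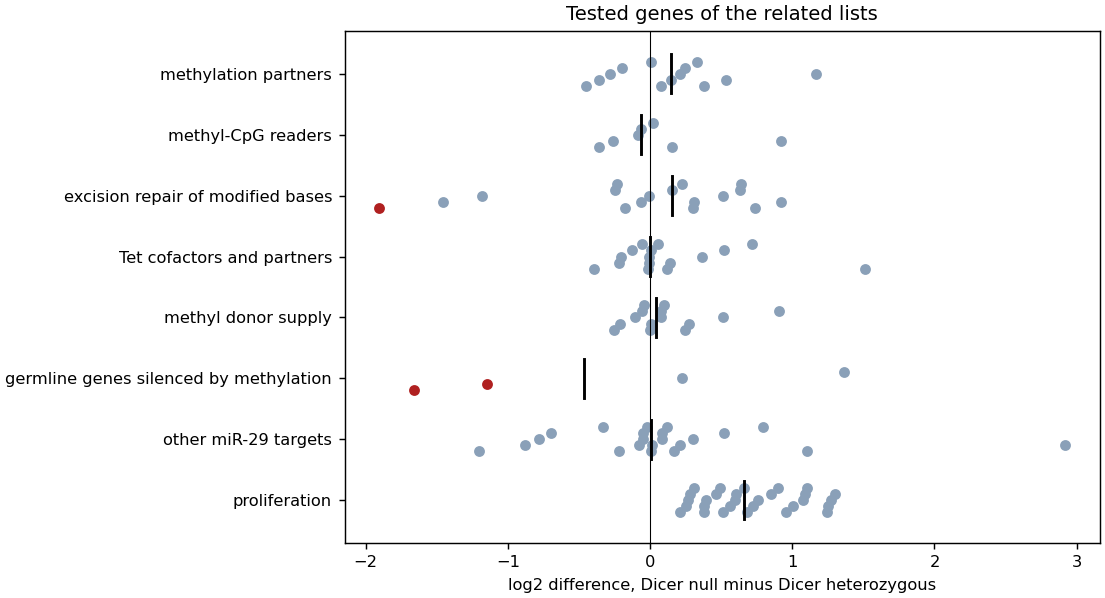
Log2 difference, null minus heterozygous (x), of each tested gene in 8 lists of related genes (y), with the list's median as a black bar and called genes in red. The 3 red genes, Gadd45b, Sycp3 and Brdt, lie below 0. The 29 proliferation genes all lie above 0 with none called.

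The genes whose pattern over the 6 arrays was most like that of Tet3, among 3832 genes with an SD of at least 0.5, were Bmp5, a bone morphogenetic protein, Mis18a, which loads the centromeric histone, and Syne4, a nuclear envelope protein (Pearson r = 0.998, 0.997 and 0.994). These values describe 6 points in 2 groups and carry no test. For Dnmt1 they were Slc12a7, a potassium chloride transporter, Rnf225 and Tdrkh (r = 0.979, 0.973 and 0.971), each of which differed by at most 0.12 between the groups and had its lowest value in heterozygous replicate 3.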

How the data were processed

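Messenger RNA of 6 cultures was measured on Affymetrix 3′ arrays. The authors deposited log2 values per probe set, made with GCRMA 2.20.0 in R 2.11.1 per the submitters' processing notes; its settings were not stated in the labels. GCRMA corrects background by probe sequence and normalizes quantiles, which removes overall shifts, and signal over background and the number of arrays, not read depth, limit precision. Gene symbols came from the annotation of the platform (34945 with 1 symbol, 932 with several, 9160 with none), and only the first kind was used. The minimum for testing was a mean of 3, under which lay 78 of 81 probe sets for chemosensory receptors.

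Groups came from the titles. limma 3.58.1 in R 4.3.3 (lmFit, eBayes, no block, two-sided) was fitted to all 24385 tested probe sets, with Benjamini-Hochberg adjustment over them at 0.05. It was tested on simulated data. A fold is 2 to the power of the log2 difference, with group means below 3 set to 3. A gene was read by its brightest tested probe set. Named were all members, the genes nearest to or past the threshold in each related list (at most 4 called), genes fixed by role (Uhrf1, Dnmt3l, Mbd4, Rbl2, Idh1 and Idh2, with another that is not reported here) and the 3 genes most like each called member and Dnmt1. Marker genes and the genes marked in the text as chosen after their values were seen fall outside this rule. The members and lists were chosen with earlier results of these data known. Alternatives were other minimums, normalizations, moderation, weights, probe set choices, a proliferation covariate, the replicate number as a block, and each array left out. Figures used matplotlib 3.10.9.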

Additional observations from a re-analysis of the deposited data

How the results depend on the processing

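In limma, 756 probe sets, 2 member probe sets, 1 member gene (Tet3) and 3 genes of the related lists were called. Other minimums, trend and robust moderation, a second quantile normalization, centred arrays and a floor at 3 gave 620 to 929 probe sets and again 2 and 1 for the members, and other probe set choices again 1 member gene. The count over the lists was 3 with a minimum of 2 or 4 and 1 with no minimum. The cause of the other changes was not tested. Ordinary t statistics called 0 probe sets, 0 member probe sets and 0 member genes (Tet3 1.28, adjusted p = 0.0912 from limma's unmoderated fit). Array weights called 6875 of all 24385 tested probe sets, against 756 in the main fit, so calls were far more common everywhere. In that fit 7 of the 14 member probe sets and 3 of the 6 member genes were called, among them Dnmt3a (0.97) and Tet2 (1.17). Array weights also turned Dnmt1 to -0.10. The proliferation covariate called 124, 0 and 0, with Tet3 at 1.18 and Dnmt1 at -0.215. Without 1 array 45 to 857 probe sets, 0 to 2 member probe sets, 0 to 1 member genes and 0 to 3 list genes were called. The differences were then 1.18 to 1.35 for Tet3, 0.74 to 1.29 for Dnmt3a, 0.91 to 1.75 for Tet2, 0.88 to 2.21 for Dnmt3b, 0.06 to 0.91 for Tet1 and -0.108 to 0.082 for Dnmt1.

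Deviations of same-numbered arrays from their group means correlated at -0.06, 0.11 and 0.24, so the numbers were not taken to pair the samples. With the replicate block 116 probe sets (98 of them among the 756), 0 member probe sets, 0 member genes and 0 list genes were called, and Tet3 at 1.28 had a limma adjusted p of 0.0793.

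Among the ratios, averaging a gene's probe sets turned Tet3 to Tet2 to 0.71 and Dnmt3b to Dnmt3a to -0.059. Leaving out 1 array gave -0.54 to 0.38 and -0.41 to 1.48 for these ratios. Differences that start near a log2 value of 3, as those of Tet1 and Tet3 do, are limited by signal over background.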
